A study of Mus musculus with 8 samples.

Results

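Cluster #m5c is the mesenchymal cell population of the adult mouse liver that was annotated as second layer cells (SLC), perivascular cells held to lie in the walls of central veins outside the smooth muscle cells (SMC). Its members were taken as the cells of community cluster 5 of the deposited mesenchymal cell clustering. They numbered 87 of 1337 mesenchymal cells (6.51%) and of 3491 liver cells in all, 66 from the male pool (6.61% of its mesenchymal cells) and 21 from the female pool (6.2%). All 87 carried the SLC annotation, which 89 cells had in total, and all 87 fell into cluster 5 of the coarser multilevel clustering, together with 34 venous SMC. The study profiled single cells from livers of C57BL6/J mice of both sexes, aged 8 weeks to 1 year, by Smart-seq2, a method that reads RNA along the whole transcript, 1 cell per well of a 384-well plate. Plain C57BL6/J mice and strains with fluorescent reporters, kept heterozygous, were used. Mesenchymal cells were sorted by GFP driven from the *Pdgfrb* or *Acta2* promoter, by nuclear GFP from the *Pdgfra* locus, or by an antibody to PDGFRα, and cell classes were assigned afterwards by clustering. A pool is the set of cells of 1 sex, and the mice within a pool are not named for each cell. The 8 samples of the series are pools of 4 cell classes by sex, and the 2 mesenchymal pools served as replicates here.

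Perivascular cells wrap blood vessels and share a lineage with fibroblasts. In the liver they include contractile SMC of arteries and veins, and hepatic stellate cells (HSC), which lie along the sinusoids, store retinoids as retinyl esters and turn into matrix-producing cells after injury. SLC have been told apart from both mainly by shape and position. Position was not measured in these data, so what follows describes RNA only.

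Cluster #m5c was set against 3 populations named by the deposited clusterings: fibroblasts (multilevel clusters #m1, m4, m8 and m10, 561 cells), SMC (community clusters #m2c arterial, m8c portal vein, m9c venous and m15c large vein, 380 cells) and HSC (community cluster #m7c, 72 cells). Capsular HSC (cHSC, #m3c, 113 cells) are given where they help to place a value. For each cluster, the counts of its cells in a pool were added up, and a sum of at least 5 cells made a library, giving 2 libraries for #m5c, 6 for fibroblasts, 8 for SMC, 1 for HSC (male, since only 4 female cells belonged to it) and 2 for cHSC. A level is given as CPM, the share of a library's counts that fell on a gene, scaled to the same total in every library. Differences are log2 fold changes from 1 edgeR quasi-likelihood fit over all 19 libraries. The standard error (SE) beside them was derived as the absolute log2 fold change divided by the square root of the F statistic. A gene was called when its Benjamini-Hochberg adjusted p was under 0.05 over all 21133 genes tested and the change was at least 2-fold. The clusters had been drawn on these same counts, so a call describes the size and evenness of a difference and is no independent test of it.

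The summed depth was 15108860 counts for male and 7552331 counts for female #m5c cells, and the other libraries ranged from 1634619 to 35497547 counts. The median #m5c cell held 199810 counts and 3540.5 genes in the male pool and 321121 counts and 6776 genes in the female pool. Male HSC had 190866 counts and 3317 genes per cell at the median, and male #m9c cells 170117 counts and 3350 genes. The mice behind each library are not named, so errors and p-values measure only the spread between these libraries, part of which may be technical. All female mesenchymal cells came from a single plate and the male #m5c cells from 7 others, so sex and plate cannot be told apart. RNA of other liver cell classes was low in #m5c. The summed levels in the male and the female pool were 1019 and 1998 CPM for 15 hepatocyte genes, 107 and 112 CPM for 12 endothelial genes, 152 and 188 CPM for 13 immune genes, 22.4 and 2.25 CPM for 10 cholangiocyte genes, 27.5 and 67.1 CPM for 9 mesothelial genes and 7.61 and 37.1 CPM for 9 Schwann cell genes.

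The 5 genes taken as markers of #m5c were *Lrat*, *Ncam1*, *Igsf10*, *Gdf6* and *C7*. They were chosen with earlier results of these data known, and of the 5 the text of the study names *Ncam1* for this cluster. *Lrat* encodes the enzyme that esterifies retinol for storage and is a classical HSC gene (chr3:82892579-82903973, minus strand, GRCm38). *Ncam1* encodes a neural cell adhesion molecule (chr9:49502136-49798925, minus strand), *Igsf10* an immunoglobulin superfamily protein (chr3:59316735-59344394, minus strand), *Gdf6* a ligand of the BMP family (chr4:9844372-9862345, plus strand) and *C7* a component of the terminal complement complex (chr15:4988762-5063740, minus strand).

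Where a pair of values is given, the first is of the male and the other of the female pool. *Lrat* in #m5c stood at 1554 and 1292 CPM, against 1873 CPM in HSC, 1100 and 1154 CPM in #m9c and between 22.9 and 332 CPM in the 6 fibroblast libraries. Both #m5c libraries therefore lay below HSC, just above venous SMC and above every fibroblast library. *Gdf6* stood at 300.1 CPM and 90.3 CPM in #m5c, against 212 and 81.7 CPM in #m9c, 152 CPM in HSC, 153 and 20.8 CPM in cHSC and at most 58.7 CPM in fibroblasts. Within each pool #m5c was the highest of these, but the male and female #m5c values were further apart than #m5c and #m9c of the same pool. *Igsf10* was at 266 and 315 CPM in #m5c, at 222 and 237 CPM in cHSC, at 180 CPM in HSC and between 96.6 and 241 CPM in fibroblasts, and it stayed at or under 45.1 CPM in SMC. The lead of #m5c over fibroblasts was smaller than its error (0.66 ± 0.90, log2 fold change ± SE).

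*Ncam1* separated #m5c from most of its neighbours but not from all. It was at 398 and 295 CPM in #m5c, at 677 and 585 CPM in the large vein SMC of #m15c, at 343 and 91.1 CPM in cHSC, at 44.3 CPM in HSC, at 12.7 and 29.3 CPM in #m9c and between 0.784 and 141 CPM in fibroblasts. *C7* behaved in the opposite way towards fibroblasts. It was at 67.5 and 138 CPM in #m5c, between 174 and 1118 CPM in fibroblasts, at 6.48 CPM in HSC and at or under 6.5 CPM in SMC, so #m5c lay below every fibroblast library and above HSC and SMC (−2.97 ± 0.74 against fibroblasts and 3.94 ± 1.14 against HSC, neither called). In the endothelial, immune and epithelial cells of the series no marker exceeded 25.9 CPM in a pool. All 5 markers were thus present in both #m5c pools, but none taken alone set #m5c apart from every other cluster.

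**Figure D1:**
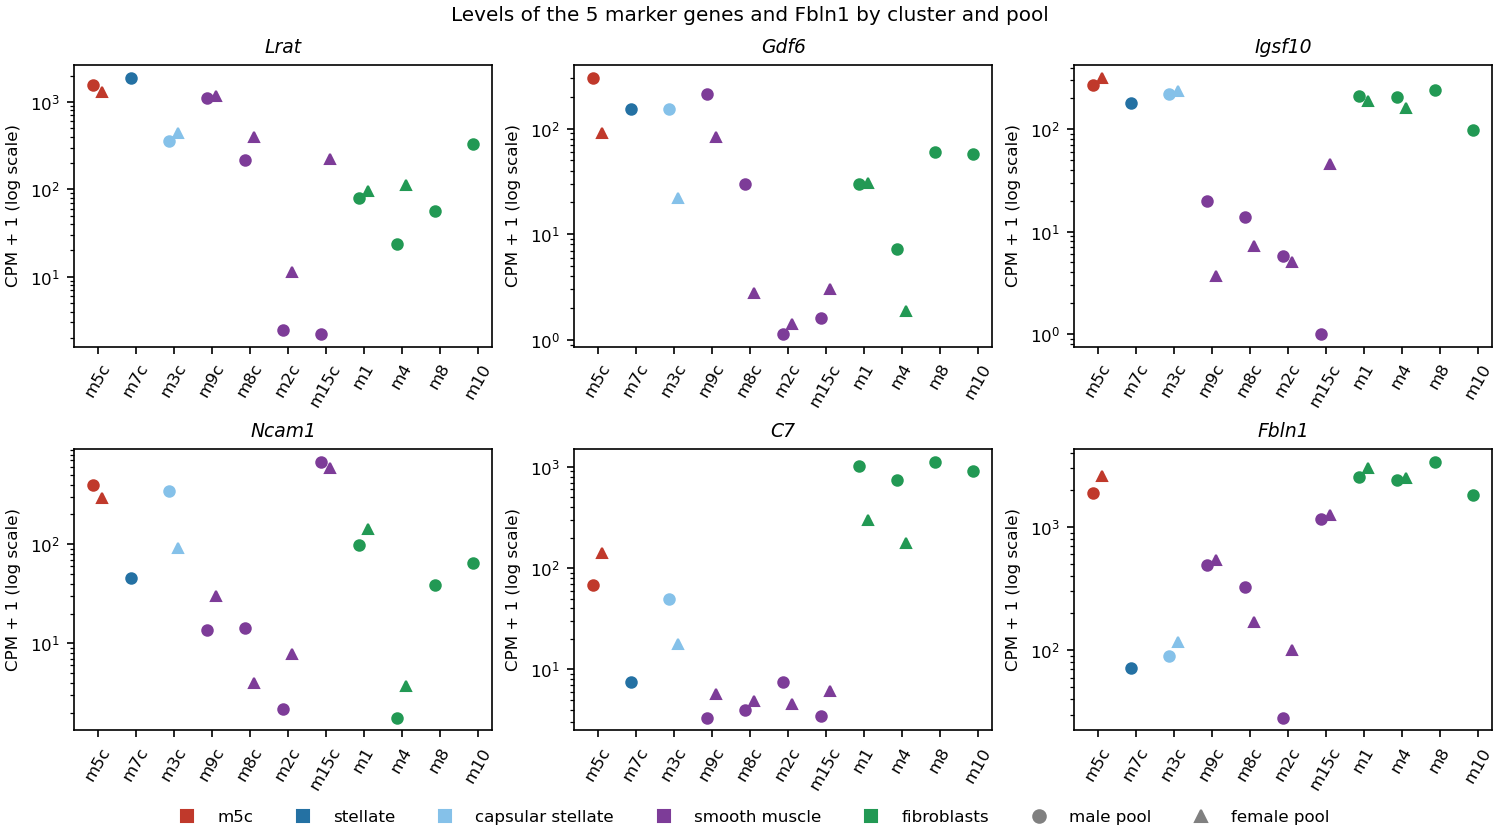
Levels of the 5 marker genes and of *Fbln1* in the 19 summed libraries, as CPM + 1 on a log axis, with 1 panel per gene, clusters along the horizontal axis, circles for the male and triangles for the female pool and colours for the populations. *Lrat* in #m5c sits at 1554 and 1292 CPM, next to HSC and venous SMC, while *Fbln1* sits at 1881 and 2602 CPM, next to the fibroblasts.

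Single cells were then examined, counting a gene as detected from 20 counts upwards, because on the female plate low counts were widespread: at least 1 count of *Lrat* was found in 91.8% and of *Ncam1* in 77.0% of the mesenchymal cells outside #m5c. With 1 count as the limit, #m5c shares were 90.8% for *Lrat* (95% exact binomial interval 82.7 to 95.9%, counting error only), 79.3% for *Ncam1* (69.3 to 87.3%), 77.0% for *C7* (66.8 to 85.4%), 58.6% for *Igsf10* (47.6 to 69.1%) and 52.9% for *Gdf6* (41.9 to 63.7%). With 20 counts as the limit *Lrat* was detected in 69 of 87 #m5c cells (79.3%), *Ncam1* in 46 (52.9%), *Igsf10* in 34 (39.1%), *Gdf6* in 32 (36.8%) and *C7* in 19 (21.8%). In HSC the shares were 80.6%, 6.94%, 29.2%, 19.4% and 4.17%, and in fibroblasts 16.2%, 13%, 34.4%, 8.56% and 81.3%, in the same order. The *Lrat* share of #m5c thus resembled that of HSC, while its *Ncam1* share lay between those of cHSC (41.6%) and #m15c (66.7%). At least 3 of the 5 were detected in 41 #m5c cells (47.1%), 29 of 66 male and 12 of 21 female, against 13.6% of fibroblasts (21.6% in #m1 and 21.4% in #m10), 11.1% of HSC, 16.8% of cHSC, 5.13% of #m9c cells and 0.526% of SMC. On the other side, 8 male #m5c cells had none of the 5 at this limit. Since the 5 were chosen with earlier results of these data known, these shares are a description and no test. *Lrat* and *Ncam1* were detected in the same cell in 41 #m5c cells (47.1%), against 5.56% of HSC, 2.50% of fibroblasts, 7.69% of #m9c, 18.6% of cHSC and 18.2% of #m15c cells.

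The other pair of genes examined joined an HSC gene with a matrix gene. *Lrat* and *Fbln1*, which encodes the elastic fibre protein fibulin 1, were both detected in 65 of 87 cells (74.7%), 47 of 66 male and 18 of 21 female. The same was true of 15.7% of fibroblasts (37.3% in #m10, 15.5% in #m1 and 5.10% and 5.13% in #m4 and #m8), 6.94% of HSC, 8.85% of cHSC and 43.6% of #m9c cells (8 of 29 male and 9 of 10 female). In #m5c both genes were therefore found in the same cells, and not only in the summed libraries.

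Lists of genes gave a less even picture. A list of 28 HSC genes (*Lrat*, *Reln*, *Hgf*, *Plvap*, *Gdf2* and others) and a list of 26 fibroblast genes (*Pdgfra*, *Dpt*, *Dcn*, *Lum*, collagens and others) were summed per cell. The lists share no gene and were drawn up with earlier accounts of these cells in hand, so their direction in HSC and fibroblasts is given by construction. The median #m5c cell had 8074 CPM of the HSC list, compared with 29600.4 CPM in HSC, 10635 CPM in #m9c, 9780 CPM in cHSC and 2871 CPM in fibroblasts. It had 37863 CPM of the fibroblast list, compared with 40698 CPM in fibroblasts, 32353 CPM in cHSC, 26984 CPM in #m9c and 19637 CPM in HSC. Cluster #m5c thus came close to fibroblasts in the fibroblast list, with pool medians of 36332 and 43438 CPM (male and female) beside 36054 and 25943 CPM in cHSC, and lay between fibroblasts and HSC in the HSC list. A cell was counted as high in both lists when it exceeded 8015 CPM of the HSC list (the 95th percentile of fibroblasts) and 31042 CPM of the fibroblast list (the 95th percentile of HSC). This held for 30 of 87 #m5c cells (34.5%), 23 male and 7 female, for 20.5% of #m9c, 27.4% of cHSC (31.9% male, 9.09% female), 5.56% of HSC and 2.67% of fibroblast cells. The HSC limit was passed by 44 and the fibroblast limit by 65 of the 87, and the summed levels of the lists ran against each other over male #m5c cells (Spearman's rho −0.43, 66 cells) and showed no such order over female cells (0.04, 21 cells), a description over cells that share a pool and whose list sums share a total. The 30 cells had a median of 246076 counts and 3939.5 genes and the other 57 a median of 208011 counts and 4302 genes; within the male pool these were 235679 counts and 3510 genes against 171295 counts and 3655 genes. Cells with very many genes had been removed by the authors as doublets, no doublet caller was run here, and the part of doublets in the 30 cells was not tested.

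**Figure D2:**
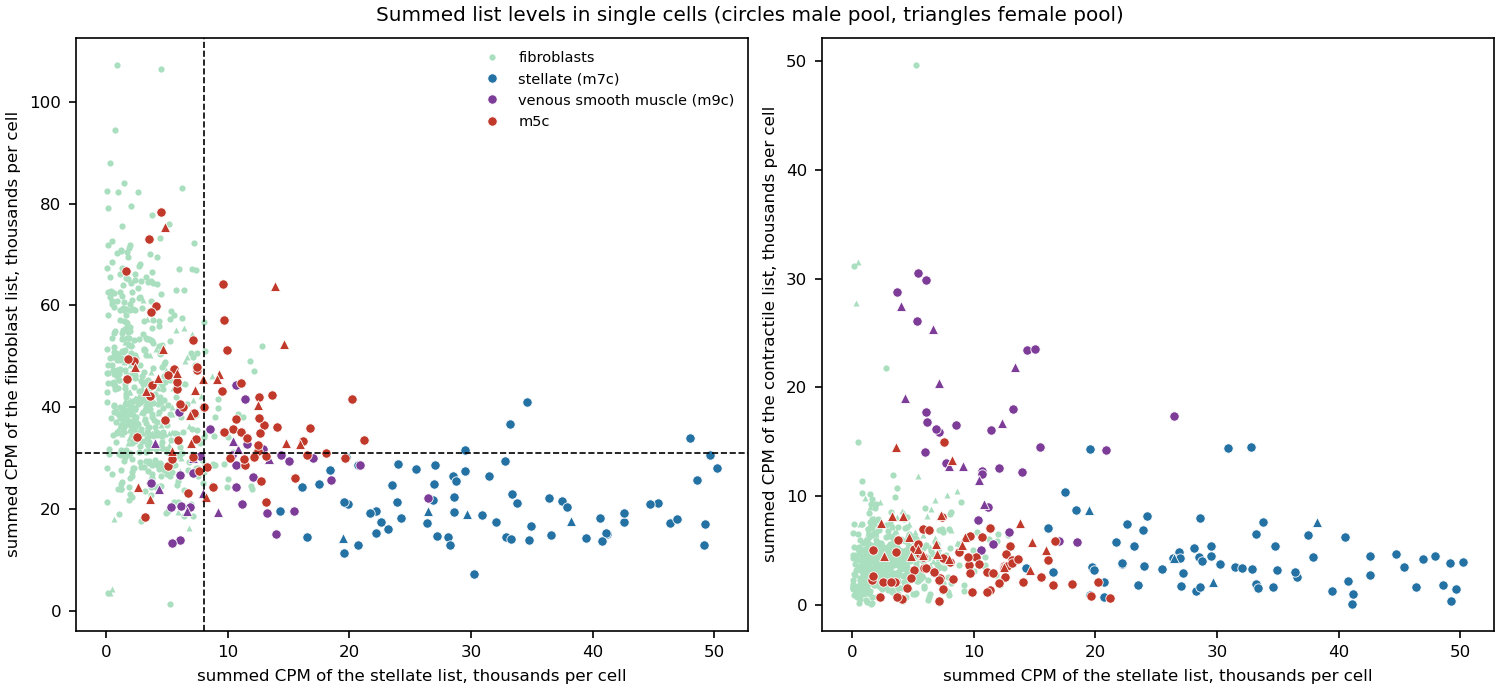
Each point is a cell, with the summed CPM of the HSC list on the horizontal axis and that of the fibroblast list (left) or of the contractile list (right) on the vertical axis of each cell; circles are male and triangles female. Dashed lines mark the 2 percentile limits, and 30 of 87 #m5c cells lie in the upper right field of the left panel, whereas in the right panel #m5c cells (median 3980 CPM) lie as low as HSC and below #m9c cells (15918 CPM).

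The comparison with HSC asked which genes divide #m5c from the cells it shares *Lrat* with. The elastic fibre genes *Fbln1* and *Mfap4* were among the few genes that edgeR called higher in #m5c. The HSC list stood at lower values without an edgeR call, while DESeq2 called 5 of its members lower. With a single HSC library, 13 genes were called higher (0.0615% of all tested) and 1 lower (0.00473%), whereas DESeq2 on the same libraries called 364 and 66.

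By list, the calls among matrix genes were few: 2 of 23 elastic fibre genes were called higher (median 1.24), 1 of 39 proteoglycans and glycoproteins higher and 1 lower (median 0.62), and none of 22 collagens (edgeR unadjusted p under 0.05 for 7 higher and 1 lower, DESeq2 calls for 4 and 0). *Fbln1* was at 1881 and 2602 CPM in #m5c and at 71.3 CPM in HSC (4.92 ± 0.63). *Mfap4*, a microfibril-associated glycoprotein, was at 1402 and 1847 CPM against 54.3 CPM (4.85 ± 0.78), and *Fmod*, the collagen-binding proteoglycan fibromodulin, at 964 and 1138 CPM against 18.7 CPM (5.76 ± 0.85). All 3 were within the range of the fibroblast libraries, which ran from 1818 to 3388 CPM for *Fbln1*, from 994 to 2613 CPM for *Mfap4* and from 411 to 2366 CPM for *Fmod*. In cHSC *Fmod* and *Mfap4* were high as well (937 and 501 CPM, 1230 and 978 CPM) but *Fbln1* was not (89.5 and 116 CPM).

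Other called genes encode secreted proteins. *Gas6*, the ligand of the TAM receptor kinases, was at 2441 and 3162 CPM against 342 CPM in HSC (2.98 ± 0.52), *Igfbp4*, an IGF-binding protein, at 4322 and 3197 CPM against 1104 CPM (1.72 ± 0.28) and *Serpinf1*, which encodes PEDF, at 633 and 859 CPM against 16.6 CPM (5.44 ± 0.89). *Olfml2b* was at 674 and 750 CPM in #m5c and at 4.61 CPM in HSC (7.22 ± 0.86), and *Cpxm2*, a carboxypeptidase-like protein, at 346 and 840 CPM against 0.792 CPM (9.48 ± 1.57). *Olfml2b* was higher in #m5c than in all 6 fibroblast libraries (126 to 446 CPM), while in #m9c it reached 431 and 987 CPM. The actin regulators *Gsn* (6014 and 6638 CPM against 2230 CPM, 1.45 ± 0.22), *Lmod1* (82.2 and 218 CPM against 2.16 CPM, 6.06 ± 1.02) and *Pdlim3* (142 and 131 CPM against 0.72 CPM, 7.51 ± 1.0) were also called; of the 24 contractile genes only *Lmod1* was (median 1.73). The tetraspanin *Cd9* (82.5 and 251 CPM against 2.52 CPM, 5.99 ± 1.08) and the stress-response gene *Gadd45g* (84.3 and 116 CPM against 2.81 CPM, 5.10 ± 0.94) completed the 13. With the pool as a block *Gadd45g* was no longer called. In the list of 19 dissociation-induced genes, 17 were positive against HSC with a median of 1.28, edgeR and DESeq2 called none and 3 were higher at an unadjusted edgeR p under 0.05; their part in the *Gadd45g* level was not tested. On the 4 plates that held enough #m5c and HSC cells, *Fbln1*, *Mfap4*, *Fmod*, *Serpinf1*, *Gas6*, *Igfbp4*, *Gsn*, *Olfml2b* and *Cpxm2* were higher in #m5c on all 4, as were *Pdlim3* and *Gadd45g*, while *Lmod1* and *Cd9* were higher on 3.

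The only gene called lower than in HSC was *Ecm1*, a secreted matrix protein, at 2285 and 2171 CPM in #m5c and 7161 CPM in HSC (−1.73 ± 0.26, lower on 4 of 4 plates). Of the HSC list, all 28 members had a negative difference and the median was −2.28, against 0.00 over all genes tested, but none was called; 14 were lower at an unadjusted edgeR p under 0.05, and DESeq2 called 5. *Reln*, a secreted glycoprotein, was at 495 and 36.4 CPM in #m5c against 3663 CPM in HSC (−3.83 ± 1.28), *Plvap* at 95.6 and 89.4 CPM against 3336 CPM (−5.22 ± 1.17) and *Fcna*, a lectin of the complement system, at 14.4 and 6.09 CPM against 1706 CPM (−7.42 ± 1.78). These values were lower in #m5c on all 4 plates. *Lrat* itself (−0.45 ± 1.29) and *Nr1h4* (−0.40 ± 0.90), the bile acid receptor FXR, were about as high as in HSC, with errors that leave room for a change of 2-fold in either direction. In a list of HSC genes that the study had derived from another dataset, 14 of 183 members tested were positive against HSC, with a median of −1.33 and no edgeR call, 37 lower and 2 higher at an unadjusted p under 0.05, and 14 lower and 1 higher by DESeq2.

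Of the fibroblast list, 3 of 26 members were called higher than in HSC (*Gsn*, *Mfap4* and *Fmod*), 25 of 26 were positive and the median was 1.48. The complement gene *C3* showed a difference of 6.21 ± 1.49 (686 and 998 CPM against 11 CPM) that did not pass the call.

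**Figure D3:**
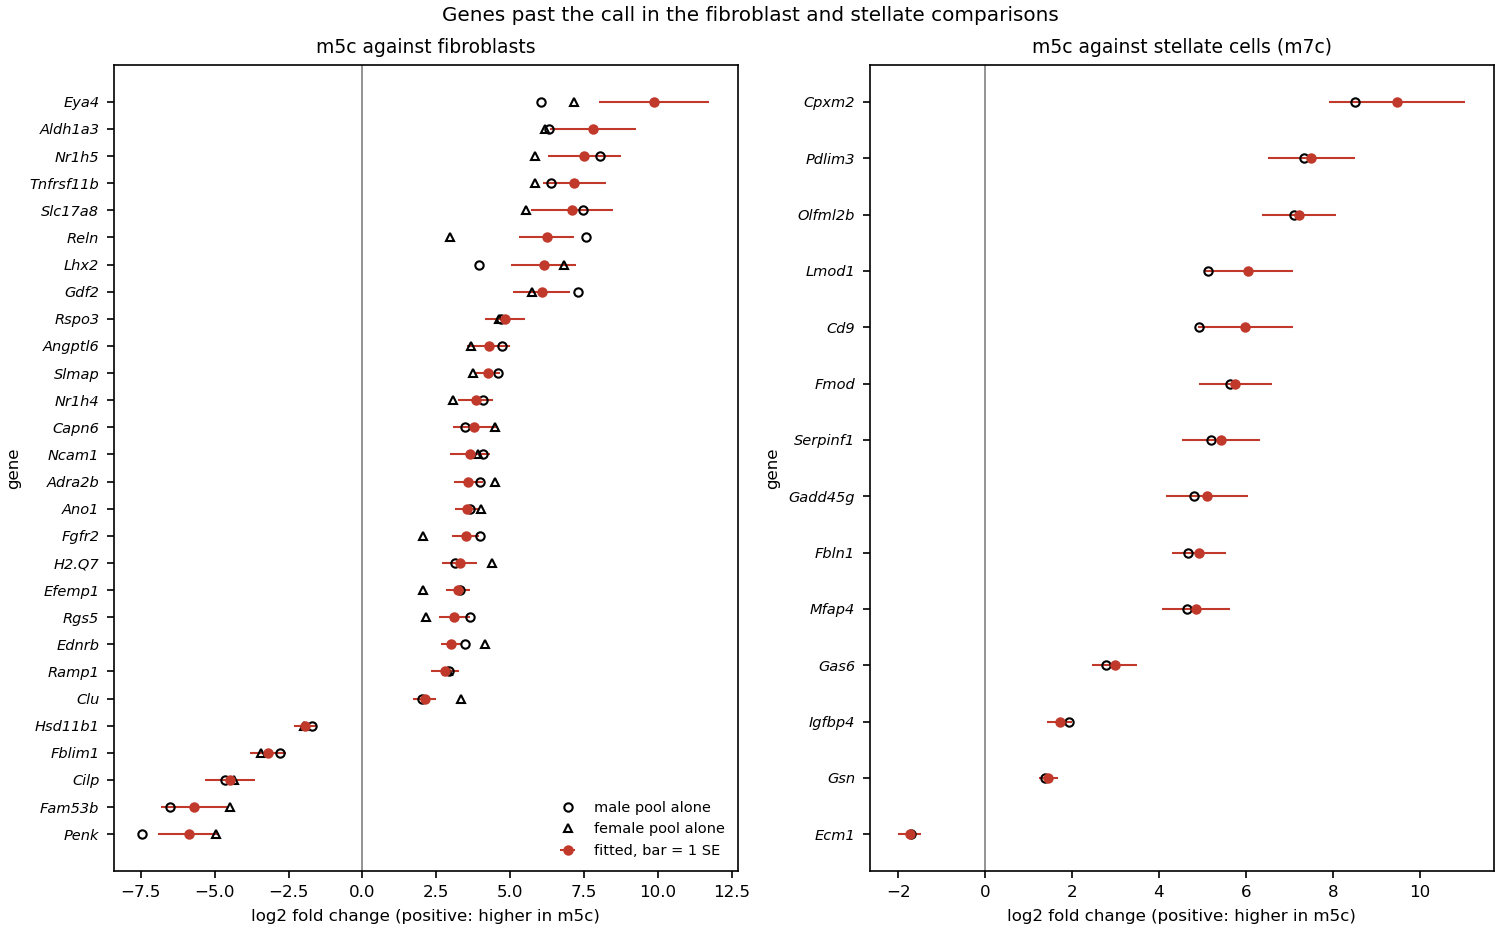
Log2 fold changes of all genes called in the fibroblast comparison (left) and in the HSC comparison (right), as filled points with bars of 1 SE; positive values are higher in #m5c, and open circles and triangles give the male and the female pool alone. In the fibroblast comparison 23 genes lie to the right and 5 to the left of 0 in both pools; in the HSC comparison, where a female library is missing, 13 lie to the right and *Ecm1* (−1.73) to the left.

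The comparison with fibroblasts asked which genes divide #m5c from the cells it shares matrix genes with. Among the genes higher in #m5c were 7 of 28 HSC genes and 3 of 42 receptors for vasoactive signals. Calls were made for 23 higher genes (0.109% of all tested) and 5 lower genes (0.0237%), whereas DESeq2 called 135 and 126, so the balance of directions depended on the tool. With the pool as a block in the fit, 16 of the 23 and 4 of the 5 were still called, and *Lhx2*, *Ncam1*, *Clu*, *Capn6* and *Aldh1a3* were among those that were not.

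Of the HSC list, 7 of 28 members were called higher than in fibroblasts, none was called lower, 25 were positive and the median was 1.34 against 0.00 over all genes. *Reln* was at 495 and 36.4 CPM in #m5c and at or under 5.97 CPM in every fibroblast library (6.24 ± 0.94). *Gdf2*, the circulating ligand BMP9 that acts on endothelial cells, was at 385 and 249 CPM against at most 21.9 CPM (6.06 ± 0.95). *Rspo3*, an enhancer of WNT signals linked to liver zonation, was at 163 and 186 CPM against at most 18.7 CPM (4.83 ± 0.68). These 3 secreted factors were higher in #m5c than in the fibroblasts of the same plate on 6 of 6 plates, and each remained below its HSC level (2042 CPM for *Gdf2* and 626 CPM for *Rspo3*). The angiopoietin-like gene *Angptl6* (485 and 471 CPM against at most 63.9 CPM, 4.27 ± 0.72), the transcription factor *Lhx2* (20.5 and 117 CPM against at most 7.85 CPM, 6.13 ± 1.09) and *Nr1h4* (491 and 427 CPM against at most 71.6 CPM, 3.83 ± 0.59) followed the same pattern, although *Lhx2* was higher on 4 and *Nr1h4* on 5 of 6 plates. *Nr1h5*, the paralogue of *Nr1h4*, was at 100.5 and 59.8 CPM in #m5c and at most 0.958 CPM in fibroblasts (7.51 ± 1.25). *Lrat* differed by 3.72 ± 0.84 and was higher on 6 of 6 plates, but its adjusted p did not pass. *Aldh1a3*, which makes retinoic acid, was called at 52.1 and 60.6 CPM against at most 2.31 CPM (7.80 ± 1.46), with a count in 24.1% of #m5c cells and a higher level on 3 of 6 plates. It was the sole gene of 25 retinoid pathway genes tested to be called by edgeR in this comparison, where their median was 0.19. DESeq2 called 3 of them higher and 1 lower.

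Receptors for vasoactive signals gave 3 calls among 42 tested, with a median of 0.13. *Ednrb*, the endothelin B receptor, was at 1158 and 638 CPM in #m5c, at 1221 CPM in HSC and between 3.53 and 657 CPM in fibroblasts (3.0 ± 0.35). *Adra2b*, an α2-adrenoceptor, was at 466 and 407 CPM against 1.57 to 180 CPM (3.58 ± 0.48) and *Ramp1*, a subunit of the CGRP receptor, at 168 and 156 CPM against 8.66 to 50.2 CPM (2.79 ± 0.49). All 3 were higher in #m5c on 6 of 6 plates. They were not particular to #m5c: in #m9c *Ednrb* stood at 2118 and 1722 CPM, *Adra2b* at 569 and 567 CPM and *Ramp1* at 381 and 306 CPM. The same held for *Rgs5*, a pericyte gene that dampens G-protein signals, at 243 and 152 CPM in #m5c, 15.5 to 37.4 CPM in fibroblasts (3.11 ± 0.53) and 853 and 514 CPM in #m9c.

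Further called genes had other roles. *Efemp1*, which encodes fibulin 3, was at 1408 and 1201 CPM in #m5c, at 1443 CPM in HSC and at most 396 CPM in fibroblasts (3.22 ± 0.40). The chloride channel *Ano1* was at 776 and 589 CPM against 25.4 to 83.9 CPM (3.54 ± 0.39), the sarcolemma-associated gene *Slmap* at 915 and 494 CPM against 26.8 to 47.2 CPM (4.25 ± 0.40) and clusterin, *Clu*, at 906 and 772 CPM against 26.9 to 333 CPM (2.10 ± 0.40). *Ncam1* (3.63 ± 0.69), *Capn6* (280 and 341 CPM against at most 98.7 CPM, 3.79 ± 0.72) and the decoy receptor osteoprotegerin, *Tnfrsf11b* (41.0 and 65.8 CPM against at most 2.69 CPM, 7.17 ± 1.06), were also called. Each of these genes was above the fibroblast range in both #m5c pools. The remaining 4 were the growth factor receptor *Fgfr2* (856 and 284 CPM against 19.6 to 337 CPM), the glutamate transporter *Slc17a8* (97.2 and 30.5 CPM against at most 0.958 CPM), the class I histocompatibility gene *H2-Q7* (listed as H2.Q7, 362 and 389 CPM against at most 78.7 CPM), whose reads may be split among near-identical copies, and *Eya4*, with a count in 6.90% of #m5c cells only.

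The 5 genes called lower were *Penk*, *Cilp*, *Hsd11b1*, *Fblim1* and *Fam53b*. *Penk*, the proenkephalin gene, was at 2.65 and 12.2 CPM in #m5c and between 182 and 725 CPM in fibroblasts (−5.88 ± 1.04). The matrix gene *Cilp* was at 27.1 and 43.2 CPM against 313 to 1209 CPM (−4.48 ± 0.86), and *Hsd11b1*, which activates glucocorticoids, at 503 and 304 CPM against 1144 to 1945 CPM (−1.95 ± 0.38). *Fblim1*, a filamin-binding protein, was at 38.4 and 11.1 CPM against 111 to 308 CPM (−3.20 ± 0.62), and *Fam53b* at 0.662 and 2.25 CPM against 32.1 to 86.9 CPM (−5.69 ± 1.11). *Penk*, *Cilp* and *Hsd11b1* were lower in #m5c on 6 of 6 plates. None of the 5 was called when sums of 3 or more cells were admitted, and 2 were called without the #m5c cells of 2 plates that stood apart. No member of the fibroblast list was called in either direction (edgeR unadjusted p under 0.05 for 1 higher and 7 lower, DESeq2 calls for 0 and 2), and the median was −0.60. *Pdgfra*, the receptor used to sort many of these cells, was at 274 and 270 CPM in #m5c against 366 to 908 CPM in fibroblasts and 224 CPM in HSC (−0.99 ± 0.63 against fibroblasts). *Thy1*, a gene of portal fibroblasts, was at 0.728 and 0.927 CPM in #m5c against 13.1 to 243 CPM in fibroblasts (−6.12 ± 1.49, not called).

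Genes induced by tissue dissociation gave no call against fibroblasts by edgeR or DESeq2, although only 1 of 19 was positive, the median was −1.35 and 11 were negative at an unadjusted edgeR p under 0.05. Their summed level was 3998 and 6335 CPM in #m5c, between 9293 and 16394 CPM in fibroblasts and 2253 CPM in HSC. The part of dissociation in the differences from fibroblasts was not tested.

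**Figure D4:**
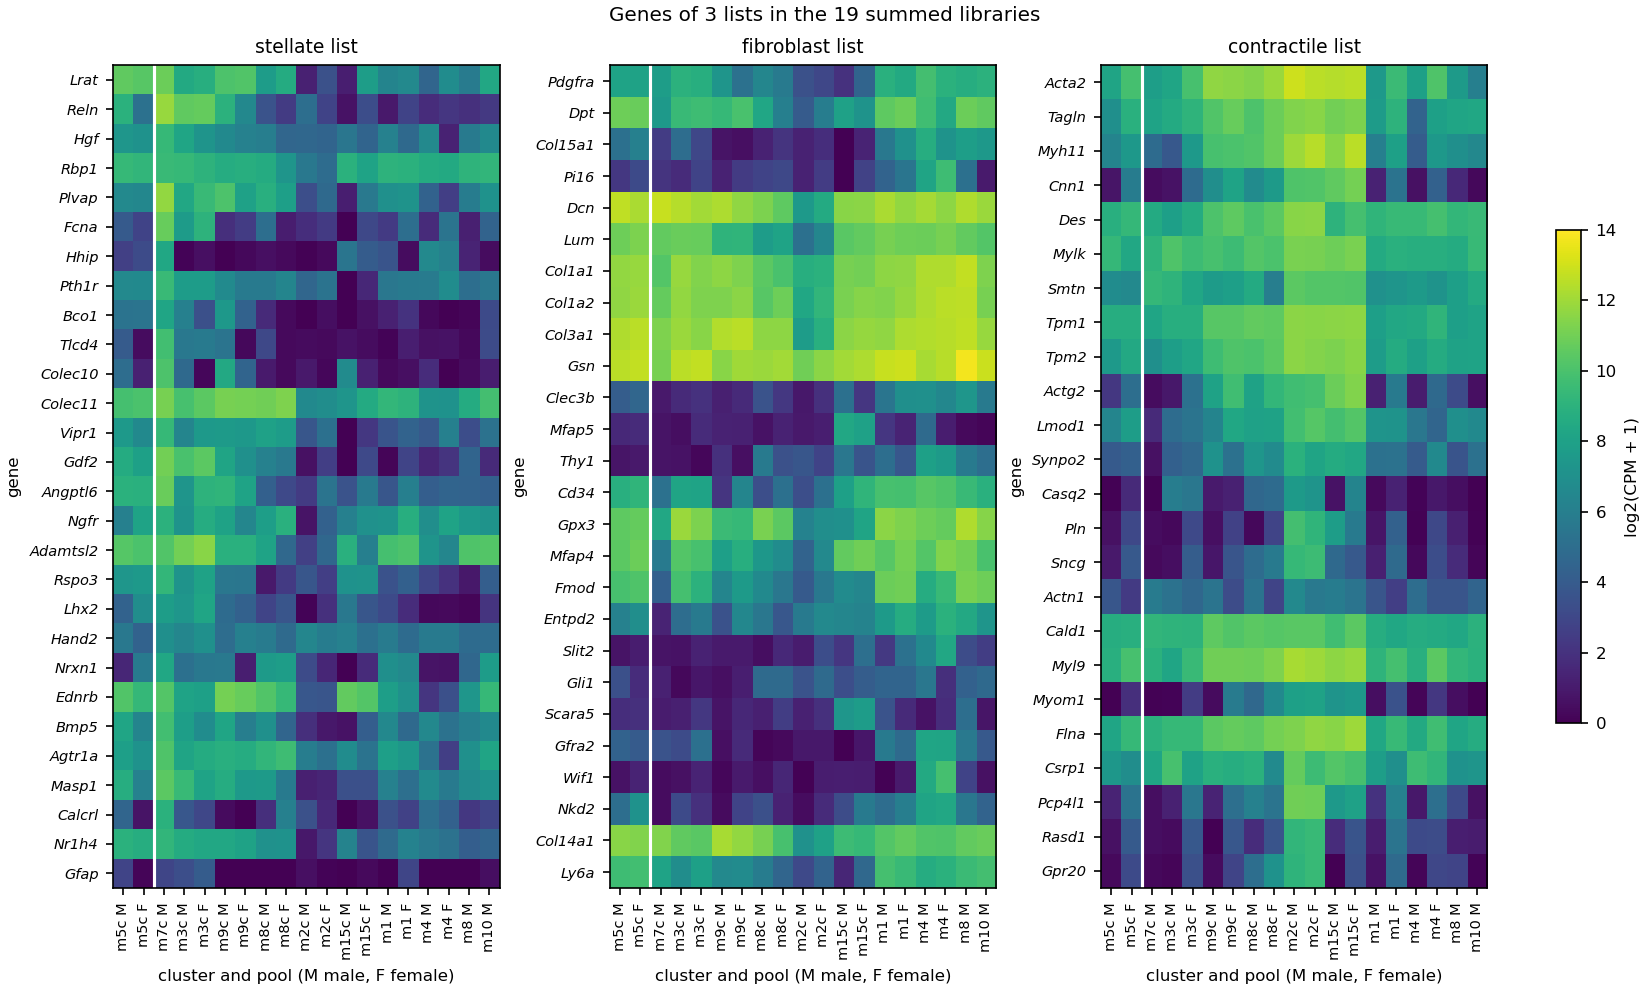
Heat map of log2(CPM + 1) for the genes of the HSC, fibroblast and contractile lists (rows) in the 19 summed libraries (columns, M male and F female), with the #m5c libraries left of the white line. In #m5c the HSC list is intermediate, with *Lrat* (1554 and 1292 CPM) near HSC and *Plvap* (95.6 and 89.4 CPM) far below it, the fibroblast list resembles that of fibroblasts, and the contractile list is low (*Acta2* 286 and 934 CPM).

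The comparison with SMC gave the most calls, 351 higher (1.66%) and 49 lower (0.232%), and the median over all genes was 0.15. With sums per plate the calls fell to 95 and 31, and of 79 called values examined over the 3 comparisons 36 no longer passed. Against the mean of the 4 SMC clusters, #m5c was low in contractile genes and had members of the matrix, complement and HSC lists called higher. The SMC cluster #m9c had summed levels like those of #m5c for the HSC list (11710 and 8177 CPM against 9367 and 7224 CPM), for collagens (21488 and 21179 CPM against 19390 and 22060 CPM) and for complement genes (10031 and 10541 CPM against 11178 and 10772 CPM). Of 24 contractile genes tested, 12 were called lower, none higher, all 24 were negative and the median was −2.64. *Acta2*, which encodes α-smooth muscle actin, was at 286 and 934 CPM in #m5c against 2688 to 7914 CPM in the 8 SMC libraries (−2.93 ± 0.61). *Myh11*, smooth muscle myosin, was at 78.2 and 175 CPM against 972 to 5987 CPM (−4.28 ± 0.94). *Des*, the intermediate filament desmin, was at 448 and 638 CPM against 520 to 3079 CPM (−1.36 ± 0.30). *Acta2* in #m5c lay in the range of fibroblasts (63.9 to 1152 CPM), and it stood at 304 and 957 CPM in cHSC and at 228 CPM in HSC.

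Of 16 other genes of mural cells, 4 were called lower and 1 higher. Their summed level in #m5c (4113 and 3515 CPM) was below that of #m9c (5772 and 6776 CPM) and above that of #m15c (2462 and 3038 CPM). *Mcam*, the adhesion molecule CD146, was at 22.6 and 13.4 CPM against 193 to 1235 CPM (−4.88 ± 0.75), *Ephx3*, an epoxide hydrolase, at 9.0 and 15.4 CPM against 94.3 to 2068 CPM (−5.05 ± 0.97), and *Notch3*, the receptor that maintains vascular SMC, at 234 and 181 CPM against 286 to 2372 CPM (−1.94 ± 0.40). *Abcc9*, a subunit of the KATP channel known from pericytes, was the gene called higher, at 1725 and 564 CPM against 44.3 to 628 CPM in SMC and 2958 CPM in HSC (2.11 ± 0.43). The secreted factor *Ccn3* was nearly absent from #m5c at 0.331 and 1.99 CPM, against 50.8 to 309 CPM in SMC (−6.82 ± 1.5). *Bcam*, a laminin receptor, was at 15.4 and 23.8 CPM against 107 to 1912 CPM (−4.47 ± 0.58). *Chrdl1*, which the study names beside *Ccn3* for venous SMC, was at 452 and 95.7 CPM in #m5c against 1.31 to 1110 CPM. It was at 16.0 to 105 CPM in fibroblasts and 43.0 CPM in HSC, and higher in #m5c on 6 of 6 and 4 of 4 plates. Of 8 venous SMC genes edgeR called 2 lower than in SMC and none higher, with 3 positive and a median of −0.93. Against fibroblasts 7 of the 8 were positive (median 2.59), with no edgeR call and DESeq2 calls of 2 higher and 1 lower. *Cdh3*, which encodes P-cadherin, was at 11.6 and 0.662 CPM in #m5c against 11.4 to 622 CPM (−4.09 ± 1.03). A count of it was found in 13.8% of #m5c cells, and it was no longer called with the pool as a block.

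All 5 marker genes were called higher than in SMC, by 3.51 ± 0.73 for *Lrat*, 3.73 ± 0.59 for *Ncam1*, 4.79 ± 0.77 for *Igsf10*, 5.10 ± 0.85 for *Gdf6* and 4.67 ± 0.52 for *C7*. Since #m15c held more *Ncam1* than #m5c and #m9c nearly as much *Lrat*, these are differences from the mean of the 4 SMC clusters and not from each of them. The 5 were chosen with earlier results of these data known, so their calls are no test of them as markers.

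Matrix genes higher than in SMC covered several classes. By edgeR, 16 of 26 genes of the fibroblast list were called higher (median 1.65) and 10 of 22 collagen genes (median 1.82). The same held for 9 of 23 elastic fibre genes (median 1.07) and 13 of 39 proteoglycans and glycoproteins (median 1.22). None of the 4 lists had a member called lower by edgeR. DESeq2 called 1 gene of the fibroblast list and 2 proteoglycans or glycoproteins lower. *Dpt*, dermatopontin, was at 1897 and 1764 CPM against 15 to 997 CPM (3.30 ± 0.40), *Efemp1* at 1408 and 1201 CPM against 4.9 to 758 CPM (4.27 ± 0.35), and *Ltbp2*, a microfibril protein, at 812 and 1416 CPM against 1.31 to 905 CPM (3.65 ± 0.53). *Svep1* (3.90 ± 0.37), *Smoc2* (3.78 ± 0.54), *Col15a1* (5.25 ± 0.72) and *Pdgfra* (3.17 ± 0.49) were called as well. For *Dpt*, *Efemp1*, *Ltbp2* and *Pdgfra* the highest of the 8 SMC libraries belonged to #m9c, and for *Ltbp2* it exceeded the male #m5c level.

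Complement genes gave 8 calls among 33 tested, all higher, with a median of 0.89. *C3*, the central component, was at 686 and 998 CPM against 14.1 to 295 CPM in SMC (3.07 ± 0.59), and *C6* was at 108 and 66.9 CPM against at most 1.12 CPM (7.23 ± 1.09). Like *C7*, *C6* encodes a part of the terminal complex. In fibroblasts *C3* ranged from 1232 to 3196 CPM and *C6* from 0 to 56.5 CPM, and neither was called in that comparison.

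Signalling genes were called by edgeR in smaller numbers, all higher than in SMC for the following lists, beside 1.66% of all genes tested. Of 19 ligands of the BMP and TGFβ family 4 were called, of 28 WNT pathway genes 4 and of 27 chemokines and cytokines 4. DESeq2 called 5, 4 and 6 of them higher, and 1 WNT pathway gene lower. Among the edgeR calls, *Gdf2* differed by 3.99 ± 0.75, *Bmp5* by 3.07 ± 0.77 (301 and 78.8 CPM) and *Rspo3* by 3.15 ± 0.56. *Wnt5a* differed by 2.88 ± 0.52 (216 and 125 CPM) and the WNT antagonist *Frzb* by 3.92 ± 0.71 (261 and 97.3 CPM). With the pool as a block *Bmp5* was no longer called. *Cxcl12*, a chemokine that retains leukocytes and progenitors, was at 5188 and 3940 CPM in #m5c against 213 to 3615 CPM in SMC (2.0 ± 0.24). Its level was 2962 to 4684 CPM in fibroblasts, 4960 and 4958 CPM in cHSC and 6938 CPM in HSC. The growth factor *Igf1* was at 255 and 259 CPM against 2.95 to 117 CPM (3.24 ± 0.51), and *Pappa*, a protease that frees IGF from its binding proteins, at 171 and 345 CPM against 1.22 to 32.4 CPM (5.20 ± 0.65). *Pappa* was also above its HSC level of 11.5 CPM and above all 6 fibroblast libraries (52.6 to 153 CPM).

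Of 50 transcription factors of mesenchymal cells, edgeR called 5 higher than in SMC and none lower, beside 1.66% and 0.232% of all genes tested. DESeq2 called 5 and 1, and 11 were higher and 3 lower at an unadjusted edgeR p under 0.05. *Tcf21*, a regulator of fibroblast and HSC fate, was at 375 and 396 CPM against 32.4 to 375 CPM (1.58 ± 0.36), and *Wt1*, a factor of mesothelium-derived cells, at 26.8 and 58.0 CPM against 0.909 to 3.20 CPM (4.71 ± 0.83). *Wt1* in #m5c was far below cHSC (414 and 422 CPM) and near HSC (21.8 CPM).

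The question whether #m5c has genes of its own was put to the 2481 genes counted in at least 50% of its cells. Of these, 51 had a higher level in #m5c than in each of the 15 other community clusters of at least 20 cells, 2 did so by at least 1.5 times and none by at least 2 times. The 2 were *Pcsk6*, a proprotein convertase (284 CPM against 164 CPM in #m17c, 1.74 times), and *Cyp2e1*, a cytochrome P450 of pericentral hepatocytes (1777 CPM against 1171 CPM in #m17c, 1.52 times). *Gdf6* followed at 1.44 times its level in #m9c, and the ratios of the other 48 were smaller. These ratios pool male and female cells, whose shares differ between clusters, and do not always hold within a pool: male *Nsmf* (1.38 times when pooled) was at 196 CPM in #m5c and 379 CPM in #m18c. By the same count the other clusters had between 1 and 97 genes at 2 times or more, 29 in HSC, 61 in #m15c, 97 in #m2c, 8 in #m9c and 2 in cHSC. *Cyp2e1* was at 2158 and 1015 CPM in #m5c. It was at 743 and 5.31 CPM in the epithelial cells of the series, which hold hepatocytes and cholangiocytes together. *Alb*, the albumin gene of hepatocytes, was at 72.0 and 427 CPM in #m5c and at 4924 and 4331 CPM in the epithelial cells. The part of hepatocyte RNA in the *Cyp2e1* level was not tested.

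The place of #m5c between populations was read from genes that differed at least 4-fold between the populations concerned in male libraries, with 0 set at the level of the one and 1 at that of the other on the log2 scale. For 240 genes higher in HSC than in fibroblasts, the median place of #m5c was 0.45 of the way from fibroblasts to HSC in the male and 0.18 in the female library, compared with 0.55 and 0.50 for cHSC and 0.53 and 0.14 for #m9c, so an intermediate place was not particular to #m5c. For 268 genes higher in fibroblasts, the corresponding places were 0.28 and 0.18 for #m5c, 0.35 and 0.42 for cHSC and 0.55 and 0.43 for #m9c. For 559 genes higher in fibroblasts than in SMC, #m5c lay at 0.84 and 0.86 of the way to fibroblasts, and for 104 genes higher in SMC at 0.77 and 0.68. For 814 genes higher in HSC than in SMC it lay at 0.72 and 0.60 of the way to HSC, but for 209 genes higher in SMC at 0.45 and 0.38, nearer to SMC. Across all 21133 genes, male #m5c correlated most with the fibroblast cluster #m10 (Pearson r of log2 CPM 0.88), then with cHSC (0.87), #m1 (0.87), #m8 (0.86), #m4 (0.86), HSC (0.85), #m8c (0.84) and #m9c (0.83), and least with #m15c (0.68). Genes are not independent, the male #m15c library held only 7 cells, and the male and female #m5c libraries correlated at 0.84. In the female pool #m1 was first at 0.87, followed by #m15c and #m2c (both 0.82). Then came #m9c and cHSC (both 0.81), #m4 (0.80) and #m8c (0.78). Library depth differed too. The first libraries, male #m10 and female #m1, held 33391725 and 35497547 counts. Low places went to male #m9c (5997910 counts) and #m15c (1634619) and to female #m4 (3347730) and #m8c (3342595). Male #m2c (21384314 counts) was also low at 0.79, and female #m15c (7495054) stood level with #m2c (33345010). The part of depth was not tested, so these orders are a description.

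Expression within #m5c varied between plates more for some markers than for others. On the 6 plates with at least 5 #m5c cells *Fbln1* ran from 1137 to 2896 CPM, *Efemp1* from 1040 to 2757 CPM and *Lrat* from 567 to 2237 CPM. *Ncam1* ran from 2.35 to 609 CPM, *Igsf10* from 2.35 to 456 CPM, *Gdf6* from 8.23 to 435 CPM, *C7* from 3.53 to 181 CPM and *Reln* from 7.01 to 1681 CPM. A plate whose name carries Acta2, with 5 #m5c cells, had the lowest values of all 5 markers, near 0 except for *Lrat*, and the highest of *Reln* and *Efemp1*. A plate whose name carries Rb, with 10 #m5c cells, had *Nr1h4* at 16.0 CPM, against 379 to 752 CPM on the others, and the lowest *Reln*. Without the 15 cells of these 2 plates the calls were 21 higher and 3 lower against fibroblasts, 338 and 50 against SMC and 13 and 1 against HSC.

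**Figure D5:**
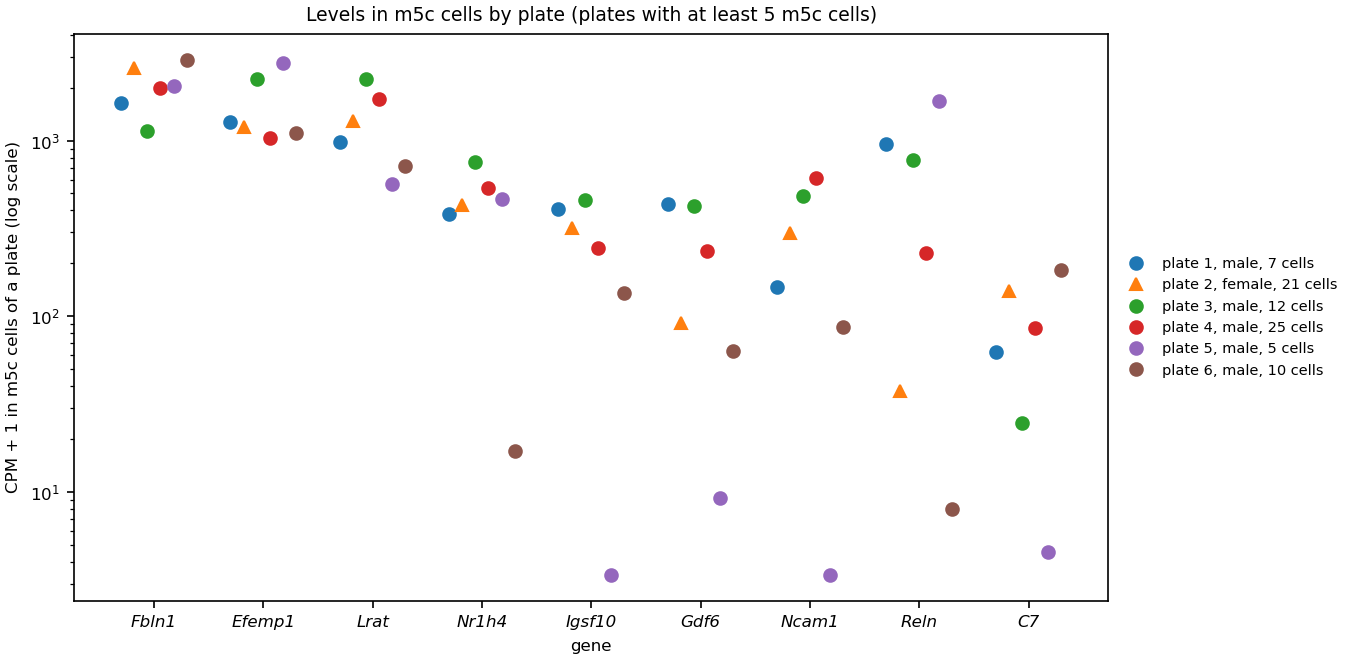
Levels of 9 genes in #m5c cells by plate, as CPM + 1 on a log axis, for the 6 plates with at least 5 #m5c cells; circles are male plates and the triangle the female plate. *Fbln1* (1137 to 2896 CPM) and *Efemp1* stay close together, while *Ncam1* (2.35 to 609 CPM) and *Reln* (7.01 to 1681 CPM) spread widely.

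Male and female #m5c cells were each a single pool, so their values stand side by side without a test. At least 4-fold differences, among genes counted in at least 50% of the cells of the higher side, were found for 76 genes higher in the male and 323 higher in the female pool, or 64 and 328 after every cell had been thinned to 50000 counts. Female cells held more counts and more genes per cell, as given above. Genes higher in the male pool included *Car3* (18.4 against 0.265 CPM), *Ston1* (99.6 against 2.52 CPM) and *Xiap* (120 against 4.5 CPM). Genes higher in the female pool included *Xist* (254 against 0.0662 CPM) and its antisense *Tsix*, *Angptl7* (146 against 0.0662 CPM), *Eva1c* (76.9 CPM, with no count in male cells, at least 387-fold higher against a floor of 3 counts) and *Reep1* (36.8 against 0.199 CPM). Smart-seq2 does not mark strand, so reads of *Xist* and *Tsix* cannot be told apart. *Angptl7* differed in the same direction in the fibroblast cluster #m1 (168 CPM female, 3.74 CPM male).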

How the data were processed

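The deposited table holds whole-number read counts per gene and cell, which the authors made from Smart-seq2 reads and filtered for depth, mitochondrial and spike-in share, doublets and mixed cell types. The submitters' processing notes name bcl2fastq, Bowtie, Bowtie2, Subread featureCounts and Seurat, with the builds GRCm38 and mm10; the settings of read mapping and counting are not given in the sources used here. Clusters and names were taken from the deposited annotation, and 40 columns of cells without a sample label were not used. The 92 spike-in rows were left out. Counts were summed per cluster and pool (at least 5 cells) and fitted in edgeR 4.0.16 (R 4.3.3) by the quasi-likelihood test with TMM factors, filterByExpr and Benjamini-Hochberg adjustment. The fit held 19 libraries and 11 clusters, with 8 residual degrees of freedom. A cell on 2 sides of a comparison was kept out of the fibroblast side. The code was tested on simulated data whose spread was set below that of the real libraries (common biological coefficient of variation 1.007). That test therefore does not measure how often changes are found or missed at the real spread. Within-plate values are log2 ratios of CPM with a pseudocount of 1. Gene positions are from GENCODE annotation of GRCm38.

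Genes could be named (165 by this rule) as the 5 markers, as genes the study names for these cells, as called list members (at most 6 per list and comparison, by size), as called genes with the largest fold in each direction (at most 10, counted in at least 50% of the cells of the higher side and in the same direction in each pool) or as the 15 genes with the highest ratio over the next cluster. The text names a selection of them, made with their values in view; the other calls of the fibroblast comparison, among them *Eya4* and *Fam53b*, the genes of the male and female pools, and *Alb* were chosen after their values were seen. The members and lists were chosen with earlier results of these data known. Alternatives were DESeq2 1.42.0, RLE factors, no filter, other minimum cell numbers, thinned cells, sums per plate, the replicate block and left-out pools. Counts that pool reads without molecular identifiers carry intervals for counting error only.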

Additional observations from a re-analysis of the deposited data

How the results depend on the processing

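Calls are given as genes higher and lower in #m5c. DESeq2 called 135 and 126 genes against fibroblasts, 579 and 329 against SMC and 364 and 66 against HSC. Without a filter on low counts edgeR called 211 and 34, 942 and 120, and 68 and 16. After thinning cells to 50000 counts it called 48 and 10 against fibroblasts and 2 lower genes against HSC. With at least 3 cells per sum there were 0 lower genes against fibroblasts (edgeR; 344 lower at an unadjusted p under 0.05 with 5 cells) and 21 higher against HSC. Sums per plate gave 95 and 31 against SMC and 32 and 11 against HSC. The lower calls against fibroblasts numbered 3 both without the tenth of #m5c cells with the most counts and without the #m5c cells of 2 plates, 2 alternatives chosen after seeing the data. With the pool as a replicate block the calls were 21 and 4, 286 and 59, and 15 and 1, of which 16 and 4, 253 and 44, and 12 and 1 were shared with the fit without it; of 79 called values named, 9 no longer passed with the block (those against fibroblasts are named above, the others were *Gadd45g* against HSC and *Cdh3*, *Bmp5* and *Ntrk2* against SMC), 17 with 3 cells per sum, 36 with sums per plate and 3 without the 2 plates. Same-pool deviations correlated at −0.003 to 0.16 over 8 clusters, so the pool numbers were not taken as pairs. The causes of these shifts were not tested. Shares of #m5c cells with a marker moved with the limit of 20 counts to 39.1% for *Igsf10*, 36.8% for *Gdf6*, 21.8% for *C7*, 79.3% for *Lrat* and 52.9% for *Ncam1*, and with thinning to 58.6% for *C7* and 67.8% for *Ncam1*. Leaving out 1 pool gave ranges of 50 to 85.7% for *Igsf10*, 69.7 to 100% for *C7*, 87.9 to 100% for *Lrat* and 74.2 to 95.2% for *Ncam1*. With a pool left out no residual degrees of freedom remained, so those folds have no test, and the HSC comparison has none without the male pool.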

Other observations

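Some members of gene groups not described above were called higher in #m5c than in the mean of the 4 SMC clusters. In that comparison edgeR called 1.66% of all genes tested higher and 0.232% lower. The calls below are by edgeR unless DESeq2 is named. Of 44 IGF-binding proteins and extracellular proteases and their inhibitors, edgeR called 13 higher and none lower and DESeq2 12 and 0. At an unadjusted edgeR p under 0.05, 19 were higher and 3 lower, and the median was 0.91 against 0.15 over all genes. Of 19 genes of neurotrophin and neural signalling, edgeR called 3 higher and none lower with a median of 2.51, and DESeq2 called 5 and 1. Among the edgeR calls was *Ntrk2*, the receptor of BDNF, which was no longer called with the pool as a block. It was at 377 and 342 CPM in #m5c against 2.45 to 363 CPM in SMC (2.54 ± 0.57), the highest being male #m9c. Of 41 axon guidance genes edgeR called 3 higher and none lower (median 0.84), and DESeq2 called 6 and 2. At an unadjusted edgeR p under 0.05, 12 of them were higher and 2 lower. In #m8c the summed levels of the neurotrophin and axon guidance lists were as high as in #m5c or higher, at 1628 and 1990 CPM against 1122 and 1093 CPM for the former and 2597 and 1799 CPM against 2558 and 1737 CPM for the latter. *Il33*, an alarmin cytokine, was at 46.1 and 29.8 CPM in #m5c and at most 5.98 CPM in SMC (4.73 ± 0.79). Of 25 retinoid genes 4 were called higher than in SMC and none lower (median 0.66), including *Lrat* and *Aldh1a3* (5.46 ± 1.06).

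Other groups gave few or no calls. Of 18 integrin genes edgeR called none against SMC, 1 was higher and 2 were lower at an unadjusted p under 0.05, and DESeq2 called 1 lower. Of 17 Notch pathway genes only *Notch3* was called lower than in SMC and none higher. *Fam53b* was at 0.662 and 2.25 CPM in #m5c, whereas the other 17 summed libraries ranged from 25.1 to 173 CPM.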
